A study of Mus musculus with 24 samples.

Results

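Among the genes that p53 switches on and whose products push a cell towards death, 10 were followed one by one across 12 RNA libraries of mouse preimplantation embryos: Pmaip1, Bbc3, Bax, Fas, Tnfrsf10b, Eda2r, Perp, Phlda3, Trp53inp1 and Aen. They were chosen by name, with earlier results of these data known. All 10 are among the 56326 gene and repeat family names counted in each library. The embryos had been injected as zygotes, into the male pronucleus, with a mixture of 3 antisense oligonucleotides (ASOs) against the endogenous retrovirus MERVL (MERVL-KD) or with a scrambled ASO (control). Total RNA was taken at the 2-cell (2C), 4-cell (4C) and 8-cell (8C) stages, and each of the 6 groups had 2 libraries, described as biological replicates, of 30 pooled embryos without zona pellucida. All embryos came from matings of B6D2F1 mice, and the labels give the background strain as BDF2, with no engineered allele named. The labels put the 2C groups at 1.5 days post-coitum and both the 4C and the 8C groups at 2.5 days, so stages are by cell number. Differences between 4C and 8C thus compare pools of the same labelled age, not earlier with later embryos. The paper reports delayed development of MERVL-KD embryos at that age. The pools of a stage may therefore hold faster or slower embryos in MERVL-KD than in control. The part of such selection in the stage differences was not tested.

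The protein p53 is a transcription factor that is stabilised after DNA damage and other stress and then activates genes for cell cycle arrest, repair and death. Its death targets act at several points. NOXA (Pmaip1) and PUMA (Bbc3) are BH3-only proteins that neutralise the protective BCL2 proteins, after which BAX (Bax) perforates the outer mitochondrial membrane. Death receptors at the cell surface start a caspase cascade from outside, and further targets act on survival signalling, on p53 itself or on DNA. MERVL is transcribed mainly at the 2-cell stage, when the embryo's own genome becomes active.

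Libraries held between 28167085 and 41482526 counts. The ASO target was low in the libraries labelled MERVL-KD: MERVL-int, the internal part of the retrovirus, took 6.33% and 6.57% of the counts in control 2C libraries against 0.157% and 0.143% in MERVL-KD 2C libraries, and it was lower at every stage (edgeR adjusted p = 1.28e-16, 0.000104 and 2.42e-12 at 2C, 4C and 8C). Markers of the 2-cell embryo summed to 615 to 681 CPM (counts scaled to library size) in control 2C libraries, to 333 to 426 in MERVL-KD 2C libraries and to at most 29.0 in any later library. Oocyte markers were also highest in control 2C libraries (1227 to 1307 CPM, against 799 to 899 in MERVL-KD). The summed markers of the 8-cell embryo onward were lower in MERVL-KD than in control libraries at each stage (592 to 614 against 853 to 899 CPM at 2C). Most of that sum at 2C was Dppa3 (776 CPM in control and 503 in MERVL-KD). At 2C Dppa3 was lower (log2 -0.54, edgeR adjusted p = 0.000148) and Tead4 of the same list higher (0.63, adjusted p = 0.0237). Krt8 and Krt18 of that list were called higher at 4C (log2 2.45 and 1.41). Blood markers summed to 3.79 to 4.28 CPM in MERVL-KD and 1.60 to 2.39 in control at 2C, and to 4.26 to 9.06 against 0.567 to 1.88 at 4C. The difference lay in Hba-a1 and Hba-a2, whereas Hbb-bs held 0 to 2 counts, Hbb-bt 0 to 4 and the leukocyte gene Ptprc 0 to 24 in any library. Sperm markers summed to 1.95 to 2.69 CPM in MERVL-KD and 1.24 to 1.29 in control at 2C, and to 0.876 to 1.04 against 0.340 to 0.556 at 4C. Cumulus cell markers summed to at most 4.05 CPM, with 1.59 to 2.40 in MERVL-KD against 0.794 to 0.869 in control at 4C. The part of these differences in the results on the 10 genes was not tested. Pools were set by the number of embryos and of their cells, but fewer cells that express a gene and less of its RNA per cell cannot be told apart in these libraries. P-values measure the spread between 2 pools per group.

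Stretches resembling the DNA site of p53 were sought in RefSeq promoter windows (build GRCm38.p6, 250 bases before to 50 after a transcript start), of which 9 belonged to 6 of the 10 genes (Aen, Bax, Bbc3, Eda2r, Fas and Phlda3). The exact p53 consensus half-site of 10 bases, which reads the same on both strands, was found in 3 of these 9 windows, as 1 site in Bax and 1 in Aen that lies in 2 overlapping windows, and in 8.36% of all 32851 windows. A pair of exact half-sites at most 13 bases apart was found in 0.0731% of all windows and in 0 of the 9. A second search, chosen after the first had been seen, allowed mismatches in a run of 2 adjoining half-sites. The fixed C and G of each half-site still had to match. The closest run of each of the 3 genes with at most 5 mismatches is shown, since these genes responded to different degrees, with bases that match the consensus in capitals and mismatches in lower case, each on the plus strand.
Bbc3, chr7:16309486-16309505: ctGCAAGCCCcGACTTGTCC
Aen, chr7:78895937-78895956: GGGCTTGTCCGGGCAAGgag
Phlda3, chr1:135766042-135766061: GGcCcTGTCCGGGCggGTgC
The Bbc3 and Aen runs have 3 mismatches in 20 bases, as few as 1.38% of all windows have, and the Phlda3 run has 5, as few as 12.4% have. In the GENCODE annotation the Bbc3 run lies in an intron of 1 transcript, and it begins 97 bases upstream of a RefSeq start. The Aen run lies in an annotated Aen exon, which is UTR in part of its transcripts, 121 bases upstream of one RefSeq start and past another. The Phlda3 run begins 43 bases upstream of the RefSeq start, outside any annotated gene. The closest runs of Bax and Eda2r had 7 and 9 mismatches, and the Fas window held no run with the fixed C and G in place. A match is a description of letters in these windows and was not linked to binding.

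Of the 9 genes that could be tested, 8 had a positive fold change in MERVL-KD at 2C and 9 at 4C and at 8C, not all past the test. A gene was called when edgeR's adjusted p was under 0.05 and the change at least 2-fold. At 2C, 5 of the 9 genes tested were called higher (Pmaip1, Bbc3, Tnfrsf10b, Eda2r and Phlda3), beside 4.37% of all 20604 genes tested. The count was 7 of 9 at 4C, with Perp and Trp53inp1 added, beside 2.66% of 19738 genes, and 3 of 9 at 8C (Pmaip1, Bbc3 and Trp53inp1), beside 0.641% of 18414 genes. No gene of the 10 was called lower by edgeR or by DESeq2, and 0 were lower at an unadjusted p under 0.05, where 2.24%, 1.88% and 1.06% of all tested genes were called lower at the 3 stages. The median log2 fold change of the 9 genes was 1.76, 1.85 and 0.70 at 2C, 4C and 8C, beside 0.014, 0.025 and 0.0057 over all tested genes. As the genes were chosen with earlier results of these data known, these counts and shares are a description and no test of enrichment. Fas had too few counts to be tested at any stage. Bax and Aen were tested at all stages and were never called.

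**Figure D1:**
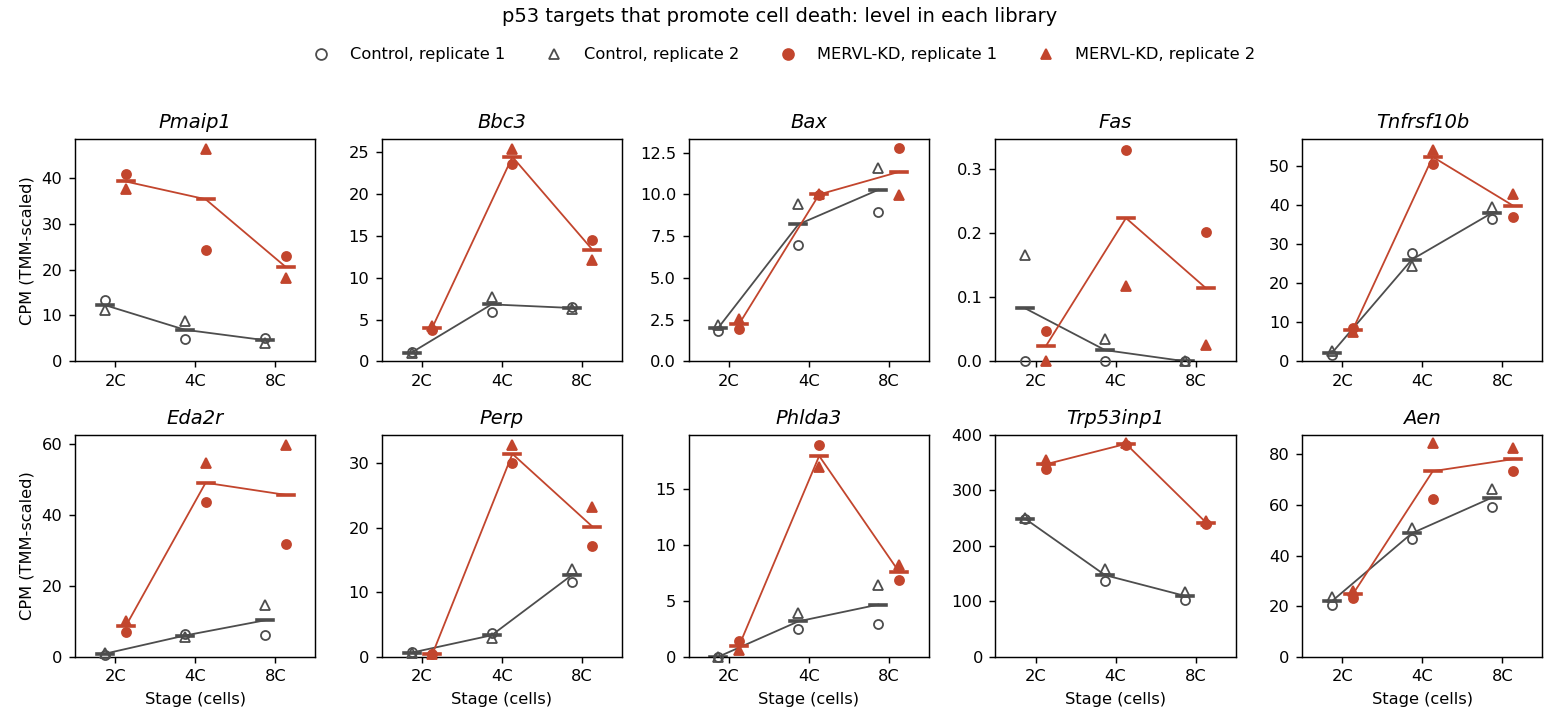
Level of each of the 10 genes in each of the 12 libraries, in CPM after TMM scaling, by stage (control in grey, open symbols; MERVL-KD in red, filled symbols; circles, replicate 1; triangles, replicate 2; bars and lines, group means). Both MERVL-KD libraries lie above both control libraries at all 3 stages for Pmaip1, Bbc3, Eda2r, Phlda3 and Trp53inp1. The groups of Perp and Phlda3 differ most at 4C in CPM, and the Bax groups overlap at 2C and 8C. For Phlda3 the fold at 2C is given only as a lower bound.

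Pmaip1 lies at chr18:66458533-66465565 (GRCm38, plus strand). Its level was 13.4 and 11.1 CPM in control 2C libraries and 40.9 and 37.6 CPM in MERVL-KD. At 4C, control libraries held 4.91 and 8.86 CPM and MERVL-KD libraries 24.4 and 46.3. At 8C the values were 5.12 and 4.09 against 22.9 and 18.3. Both MERVL-KD libraries exceeded both control libraries at each stage, and the 2 MERVL-KD libraries at 4C stood furthest apart from each other. The fold change was 3.39 at 2C (log2 1.76, SE 0.15, edgeR adjusted p = 1.07e-06), 5.18 at 4C (log2 2.37, SE 0.37, adjusted p = 0.00676) and 4.50 at 8C (log2 2.17, SE 0.21, adjusted p = 9.55e-05). Pmaip1 was thus called at all 3 stages. NOXA, its product, mainly binds the protective protein MCL1, and the gene Mcl1 itself was not called at any stage (log2 fold change -0.0069, -0.12 and -0.18).

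Bbc3 (chr7:16308393-16318205, plus strand) encodes PUMA, which binds all the main protective BCL2 proteins. Control 2C libraries held 1.08 and 0.991 CPM, from 34 and 36 counts, and MERVL-KD 2C libraries 3.80 and 4.27 CPM. At 4C the gene stood at 5.87 and 7.75 CPM in control and at 23.6 and 25.4 in MERVL-KD. At 8C it stood at 6.53 and 6.23 against 14.5 and 12.2 CPM. The groups did not overlap at any stage, and the replicates lay close together except in the control 4C libraries. Bbc3 was 4.11-fold higher at 2C (log2 2.04, SE 0.33, edgeR adjusted p = 0.000636), 3.62-fold at 4C (log2 1.85, SE 0.20, adjusted p = 0.000125) and 2.10-fold at 8C (log2 1.07, SE 0.21, adjusted p = 0.0124). The 8C change fell under 2-fold, to a log2 of 0.94, when the first MERVL-KD 8C library was left out.

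Bax (chr7:45461697-45466898, minus strand) encodes the pore-forming effector on which NOXA and PUMA converge. Its level was 1.82 and 2.20 CPM in control and 1.93 and 2.55 CPM in MERVL-KD at 2C. At 4C it was 6.95 and 9.45 against 9.94 and 10.1 CPM, the only stage at which the groups did not overlap. At 8C it was 8.96 and 11.6 against 12.8 and 9.95 CPM, with the replicates crossing between groups. The log2 fold change was 0.23 (SE 0.35), 0.29 (SE 0.23) and 0.15 (SE 0.22) at 2C, 4C and 8C, and no edgeR adjusted p was below 0.479. Of its exon bases, 12.2% are shared with the predicted gene Gm45808 on the same strand, which held 0 counts in every library.

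The receptors followed different courses. Fas (chr19:34290666-34327772, plus strand), the receptor of FAS ligand, was hardly detected. Control libraries held 0 and 6 counts at 2C, 0 and 1 at 4C, and 0 and 0 at 8C. MERVL-KD libraries held 2 and 0 counts at 2C, 12 and 4 at 4C, and 7 and 1 at 8C. At 4C and 8C both MERVL-KD libraries exceeded both control libraries, but the highest level was 0.330 CPM and the low-count filter removed the gene, so that no fold is given.

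Tnfrsf10b (chr14:69767472-69784411, plus strand) encodes the mouse receptor for the death ligand TRAIL. At 2C it was at 1.53 and 2.70 CPM in control and at 8.56 and 7.58 in MERVL-KD. By 4C the levels were 27.7 and 24.5 CPM in control and 50.6 and 54.3 in MERVL-KD. By 8C they were 36.5 and 39.7 against 37.0 and 43.0 CPM. The groups lay apart at 2C and 4C and overlapped at 8C. From 4C to 8C the group mean went from 26.1 to 38.1 CPM in control and from 52.45 to 40.0 CPM in MERVL-KD. Neither step passed (log2 0.54, edgeR adjusted p = 0.0694 in control, and -0.39, adjusted p = 0.224 in MERVL-KD). The fold change was 4.03 at 2C (log2 2.01, SE 0.28, edgeR adjusted p = 0.000175), 2.01 at 4C (log2 1.01, SE 0.13, adjusted p = 0.000711) and 1.06 at 8C (log2 0.079, SE 0.13, adjusted p = 0.822). The 4C call sits on the 2-fold threshold and was lost without the second control library (log2 0.91) or the second MERVL-KD library (log2 0.96), and with repeats and genes above 1% of counts omitted (log2 0.999), with adjusted p at most 0.000827 in each case.

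Eda2r (chrX:97333840-97377216, minus strand) encodes a receptor of the tumour necrosis factor family that binds one form of ectodysplasin A. It had 0.638 and 1.07 CPM in control 2C libraries, from 20 and 39 counts, and 7.01 and 10.1 CPM in MERVL-KD. At 4C the values were 6.38 and 5.59 against 43.6 and 54.5 CPM. At 8C they were 6.02 and 14.5 against 31.7 and 59.6 CPM. Both MERVL-KD libraries were above both control libraries throughout, but in each 8C group the second library stood well above the first. Eda2r was 10.4-fold higher at 2C (log2 3.38, SE 0.32, edgeR adjusted p = 3.71e-06) and 8.20-fold at 4C (log2 3.04, SE 0.18, adjusted p = 1.85e-06). The 8C difference of 4.46-fold did not pass (log2 2.16, SE 0.55, adjusted p = 0.136), and passed with DESeq2 (adjusted p = 0.042), with a non-robust edgeR fit (0.0111), with all 12 libraries in one fit (0.0246) or without the first MERVL-KD 8C library (log2 2.54). With single libraries left out it ranged from a log2 of 1.63, without the second MERVL-KD library, to 2.93, without the second control library, and neither of these passed.

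Perp (chr10:18845020-18857073, plus strand) encodes a tetraspan protein of the plasma membrane that belongs to desmosomes and also promotes apoptosis. Control 2C libraries held 0.670 and 0.606 CPM and MERVL-KD 2C libraries 0.380 and 0.396, from 14 to 22 counts. At 4C the gene was at 3.75 and 2.92 CPM in control and at 30.1 and 32.8 in MERVL-KD. At 8C it was at 11.6 and 13.7 against 17.1 and 23.2 CPM. At 2C, Perp had its MERVL-KD libraries below its control libraries, the only one of the 9 tested genes with a negative fold change there, and at 4C it had the largest fold of the 9. The fitted log2 fold change was -0.63 at 2C (SE 0.68, edgeR adjusted p = 0.616), 3.24 at 4C (SE 0.20, adjusted p = 2.38e-06, 9.42-fold) and 0.68 at 8C (SE 0.19, adjusted p = 0.0671). The 8C adjusted p was under the threshold, with the change still below 2-fold, with DESeq2 (0.0354), with library size as the only scaling (0.0336), with either other count filter and without the first MERVL-KD 8C library (0.00152).

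Phlda3 (chr1:135766119-135769136, plus strand) encodes a small protein that competes with the survival kinase AKT for membrane lipids. Control 2C libraries held 0 and 0 counts, and MERVL-KD 2C libraries 60 and 20. At 4C the levels were 2.44 and 3.89 CPM in control and 18.9 and 17.0 in MERVL-KD. At 8C they were 2.90 and 6.43 against 6.90 and 8.23 CPM. The groups lay apart at all 3 stages, by little at 8C, where the second control library was close to the MERVL-KD libraries. At 2C the MERVL-KD mean exceeded control by at least 11.2-fold, taking 3 counts per control library (edgeR adjusted p = 0.00109). The bound was 6.35-fold from the lower MERVL-KD library alone, and 5.59-fold with counts halved as described with the processing. These bounds allow for counting error alone. Phlda3 was 5.72-fold higher at 4C (log2 2.52, SE 0.25, adjusted p = 8.75e-05). The 8C difference did not pass (log2 0.70, SE 0.33, adjusted p = 0.274), and without single libraries it ranged from a log2 of 0.25 without the first control library (adjusted p = 0.799) to 1.39 without the second (adjusted p = 0.0151).

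Trp53inp1 (chr4:11156431-11174379, plus strand), a stress protein that promotes phosphorylation of p53 and takes part in autophagy, had the highest level of the 10 genes in every library, also per exon length (15.7 to 59.6 RPKM). At 2C its level was 247.9 and 249.8 CPM in control and 339 and 355 in MERVL-KD. At 4C it was 136 and 158 against 381 and 386 CPM, and at 8C 102 and 117 against 239.7 and 244 CPM. In every group the replicates were close, and the groups lay apart at each stage. The 2C change passed the test but was below 2-fold (1.48-fold, log2 0.56, SE 0.08, edgeR adjusted p = 0.000195). Trp53inp1 was called at 4C (2.62-fold, log2 1.39, SE 0.10, adjusted p = 6.09e-06) and at 8C (2.22-fold, log2 1.15, SE 0.10, adjusted p = 2.33e-05).

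Aen (chr7:78895854-78911209, plus strand) encodes a nuclease that degrades DNA in dying cells. Its level was 20.3 and 23.6 CPM in control and 23.3 and 25.96 in MERVL-KD at 2C, where the groups overlapped. It was 46.7 and 51.0 against 62.2 and 84.6 CPM at 4C, and 59.4 and 66.5 against 73.6 and 82.7 CPM at 8C, with the groups apart. In the reported fits only the 4C change passed, at 1.51-fold (log2 0.59, SE 0.15, edgeR adjusted p = 0.0245), and its adjusted p was 0.0656 without the first control 4C library and 0.0999 without the second MERVL-KD 4C library. With library size as the only scaling Aen also passed at 2C (log2 0.54, adjusted p = 0.0119) and 8C (0.44, adjusted p = 0.0463), and at 8C without the first MERVL-KD library (0.40, adjusted p = 0.0446), each under 2-fold. The 2C and 8C log2 fold changes were 0.25 (SE 0.14, adjusted p = 0.293) and 0.32 (SE 0.11, adjusted p = 0.135).

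**Figure D2:**
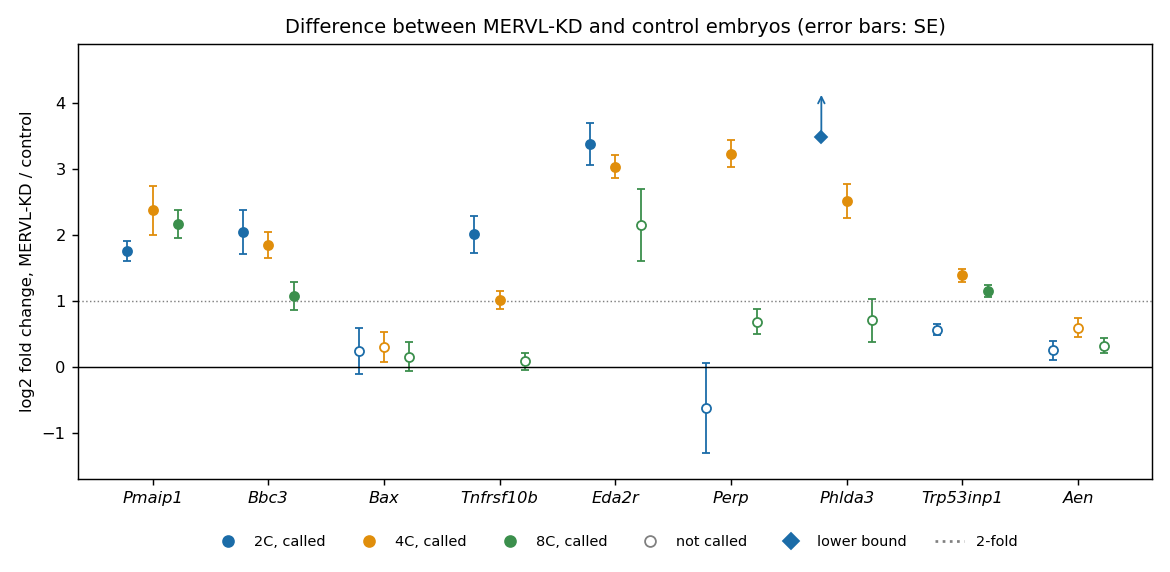
Log2 fold change of MERVL-KD over control at each stage for the 9 genes tested (points; error bars, SE; filled, called at adjusted p under 0.05 and at least 2-fold; diamond with arrow, lower bound for Phlda3 at 2C, where control libraries held 0 counts; dotted line, 2-fold). Pmaip1 and Bbc3 are called at all 3 stages, Perp at 4C alone (3.24), and Bax lies between 0.15 and 0.29.

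Levels can be compared between genes only per exon length, as CPM per kilobase of exon (RPKM), and they stayed unequal. In control 2C embryos Trp53inp1 stood at 38.4 ± 0.204 RPKM (SD, n = 2), Pmaip1 at 4.49 ± 0.596 and Aen at 3.79 ± 0.399, the last pair within their spread, and the other 7 genes lay at 1.28 or below. In MERVL-KD 2C embryos Pmaip1 reached 14.4 ± 0.859 and had moved clear of Aen (4.25 ± 0.325), while Bbc3 (1.90 ± 0.156), Tnfrsf10b (1.48 ± 0.127), Eda2r (1.45 ± 0.367) and Bax (1.42 ± 0.278) formed a group whose neighbours differed by less than their spread, apart from Bbc3 and Tnfrsf10b. At 4C, Perp ranked 8 of 10 in control (1.71 ± 0.2996) and 2 in MERVL-KD (16.1 ± 0.971). Bax, with a similar level in both groups, ranked 3 (5.20 ± 1.12) and 9 (6.34 ± 0.0489). In control, Perp and Phlda3 (2.03 ± 0.658) differed by less than their spread, as did Bax and Tnfrsf10b (4.79 ± 0.422). The same held in MERVL-KD for Perp and Pmaip1 (12.9 ± 5.68). In MERVL-KD 4C embryos the genes from Perp to Eda2r (8.33 ± 1.32) lay within about a 2-fold range, and Bbc3 (11.5 ± 0.589) and Phlda3 (11.5 ± 0.857) were level. At 8C, Pmaip1 ranked 9 in control (1.68 ± 0.266), within the spread of Eda2r (1.75 ± 1.02). It ranked 5 in MERVL-KD (7.54 ± 1.20), where its neighbours Eda2r (7.75 ± 3.36) and Tnfrsf10b (7.33 ± 0.781) were within its spread. Fas was last or next to last in every group.

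**Figure D3:**
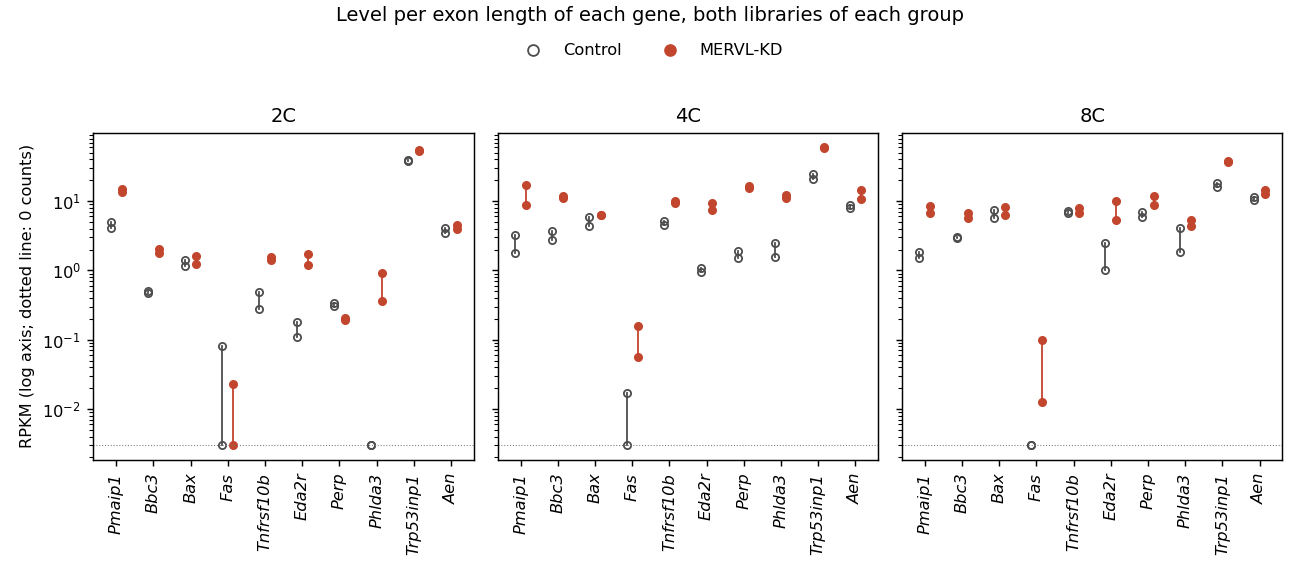
Level per exon length of the 10 genes in both libraries of each group (log axis; control open, MERVL-KD filled; a library with 0 counts is drawn on the dotted line). Trp53inp1 is highest throughout, from 15.7 to 59.6 RPKM, and Fas is at most 0.16 RPKM.

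Whether the response to MERVL-KD differed between stages was tested as the difference of the log2 fold changes in one edgeR fit of the 12 libraries. From 2C to 4C it grew for Perp (by 3.94, SE 0.42, adjusted p = 9.81e-06) and Trp53inp1 (by 0.90, SE 0.14, adjusted p = 0.000640), that is for 2 of the 9 genes by adjusted p alone, beside 4.16% of 24040 genes. From 2C to 8C it differed for 3 genes, beside 4.03% of all. Tnfrsf10b changed by -1.85 (SE 0.27, adjusted p = 0.000386), Trp53inp1 by 0.66 (SE 0.14, adjusted p = 0.00774), and the difference of Phlda3, whose size rests on the empty control libraries at 2C, was negative (adjusted p = 0.00644). Perp missed the threshold there (1.38, SE 0.41, adjusted p = 0.0616) and passed with DESeq2 and without the first MERVL-KD 8C library, and the count ranged from 2 to 4 over the alternatives. At 8C it was lower than at 4C for Perp (-2.56, SE 0.30, adjusted p = 0.00106), 1 gene beside 0.624%. The 4C and 8C pools have the same labelled age, so this difference is by cell number and not by time. Whether it reflects which embryos had reached 8C was not tested. Tnfrsf10b and Phlda3 missed the threshold from 2C to 4C (adjusted p = 0.0612 and 0.0717) and passed it under several alternatives. For Pmaip1, Bbc3, Bax, Eda2r and Aen no difference between stages passed, with the smallest adjusted p at 0.165 (Bbc3, 2C to 8C).

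Steps between stages were compared within each group, in comparisons that share their libraries with those above. From 2C to 4C, 7 of the 9 genes were called higher in control embryos, beside 20.7% of all genes, and 7 in MERVL-KD embryos, beside 21.2%, in each case Bbc3, Bax, Tnfrsf10b, Eda2r, Perp, Phlda3 and Aen. Control embryos rose by a log2 of 3.61 for Tnfrsf10b (SE 0.21), 2.79 for Eda2r (SE 0.55), 2.71 for Bbc3 (SE 0.26), 2.39 for Perp (SE 0.28), 2.02 for Bax (SE 0.27) and 1.15 for Aen (SE 0.15), and by at least 35.5-fold for Phlda3, or at least 17.8-fold with counts halved. MERVL-KD embryos rose by a log2 of 6.33 for Perp (SE 0.29), 4.15 for Phlda3 (SE 0.44), 2.70 for Tnfrsf10b (SE 0.19), 2.60 for Bbc3 (SE 0.23), 2.52 for Eda2r (SE 0.44), 2.16 for Bax (SE 0.27) and 1.58 for Aen (SE 0.15). Pmaip1 and Trp53inp1 went the other way in control embryos: their levels fell by 0.84 (SE 0.30, edgeR adjusted p = 0.0285) and by 0.76 (SE 0.10, adjusted p = 1.03e-06) on the log2 scale, passing the test under 2-fold. For Pmaip1 the step was called without the second control 4C library (-1.33), and its adjusted p ranged up to 0.224 over the alternatives. In MERVL-KD embryos the same step was -0.15 (SE 0.28) for Pmaip1 and 0.14 (SE 0.10) for Trp53inp1, and neither passed.

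From 4C to 8C, Perp was called higher in control embryos (log2 1.92, SE 0.22, edgeR adjusted p = 0.000113), 1 of 9 genes beside 1.56% of all called in either direction, and Trp53inp1 fell by 0.42 (SE 0.10, adjusted p = 0.0134, up to 0.236 over the alternatives). In MERVL-KD embryos 0 of 9 genes were called by edgeR, beside 1.64% of all, with 6 at an unadjusted p under 0.05 and 1, Phlda3, called by DESeq2. Bbc3 fell by 0.87 (SE 0.21, adjusted p = 0.021, up to 0.237 over the alternatives) and Trp53inp1 by 0.67 (SE 0.10, adjusted p = 0.000563) there, both passing the test under 2-fold. Perp had its highest MERVL-KD level at 4C, and its step to 8C did not pass (-0.64, SE 0.20, adjusted p = 0.0781).

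The other genes of the p53 response and of the death pathway were taken from lists chosen with the same results known. Of targets for arrest and feedback, 7 of 17 tested were called higher at 2C, 8 of 17 at 4C and 4 of 16 at 8C, beside 4.37%, 2.66% and 0.641% of all tested genes. The count of lower calls was 0, which was also the count by DESeq2, although 3, 0 and 2 were lower at an unadjusted p under 0.05, of which Ppm1d at 2C (log2 -0.63, adjusted p = 0.00684) and Sfn at 8C (-0.32, adjusted p = 0.0414) passed under 2-fold. The cell cycle inhibitor gene Cdkn1a (p21) rose by a log2 of 1.55 at 2C (SE 0.17) and 1.44 at 4C (SE 0.12), and stood at 0.45 at 8C (edgeR adjusted p = 0.0725). Ccng1, a cyclin gene, and Btg2, an antiproliferative gene, rose at all stages (log2 1.93, 3.01 and 1.89 for Ccng1 and 2.50, 3.32 and 1.49 for Btg2), as did the kinase gene Plk2 (1.33, 2.84 and 1.33) and the RNA-binding protein gene Zmat3 (1.75, 1.99 and 1.11). Called at a single stage were the kinase gene Plk3 (1.54 at 2C, then 0.34 and -0.49), Sfn, the 14-3-3 sigma gene (1.68 at 2C, 0.061 at 4C), Gtse1 (1.61 at 4C), Ptprv (3.29 at 4C) and the phosphatase gene Ppm1d (1.14 at 4C). Passing as higher under 2-fold were Sesn2 at all 3 stages (0.31, 0.80 and 0.51), Pidd1 at 2C and 4C (0.83 and 0.50), Ddit4 and Mdm2 at 4C (0.83 and 0.32) and Gtse1 at 8C (0.56). Of targets for repair and metabolism, the polymerase gene Polk and the nuclease gene Ercc5 rose at 2C (log2 1.27 and 1.55) and 4C (1.44 and 1.29). Ephx1 rose (2.47) and the damage sensor gene Ddb2 fell at 4C (-1.03). Under 2-fold, Ddb2 at 2C (-0.83) and Tigar at 4C (-0.54) passed as lower, and Tigar at 2C (0.28) and Rrm2b at 4C (0.37) as higher. The calls were 2 of 8 tested at 2C and, called higher, 3 of 9 at 4C, beside the same shares of all genes. At 8C, 0 of 9 were called by edgeR or DESeq2, with 4 at an unadjusted p under 0.05, of which Polk (0.73, adjusted p = 0.0267) and Ercc5 (0.87, adjusted p = 0.0206) passed as higher and Tigar (-0.39, adjusted p = 0.0257) as lower, all under 2-fold.

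The other death pathway lists are short, and with at most 4.37% of all genes called higher and 2.24% lower at a stage, a count of 0 or 1 in them is near the background. Among the other pro-apoptotic BCL2 family genes, Bcl2l11 (BIM) rose at 2C (log2 1.14, SE 0.15, edgeR adjusted p = 7.67e-05) and 4C (1.04, SE 0.16, adjusted p = 0.00174), Bmf rose at 4C (1.14, SE 0.29) and Bad fell at 4C (-1.02, SE 0.19), while Bik passed at 2C as lower under 2-fold (-0.90, adjusted p = 0.0308). No protective BCL2 gene was called by edgeR or DESeq2 (0 of 5, 4 and 4 tested, with 1, 1 and 0 at an unadjusted p under 0.05), but Bcl2l10 at 2C (log2 -0.74, adjusted p = 0.000125) and Bcl2l2 at 4C (-0.82, adjusted p = 0.0156) passed as lower under 2-fold. Further, 0 of 8, 9 and 9 apoptosome and caspase genes were called by either tool (1, 3 and 2 at an unadjusted p under 0.05). Of the genes that relay death receptor signals, Casp8 was called lower at 2C by edgeR (-1.29, SE 0.38, adjusted p = 0.0327) and not by DESeq2, and no other was called. Of the receptors' ligands, Fasl was not tested, Tnfsf10 (TRAIL) held at most 54 counts in a library and was not called, and Eda passed at 2C under 2-fold (log2 0.69, SE 0.12, adjusted p = 0.00113). Transcripts of Trp53, the p53 gene, stood at a log2 of 0.13, -0.61 and -0.32 (adjusted p = 0.609, 0.0357 and 0.495), so that they passed at 4C only, as lower in MERVL-KD and under 2-fold. Of the genes for p53 inhibitors, Mdm4 passed as lower under 2-fold at 4C (-0.65, adjusted p = 0.000603) and 8C (-0.41, adjusted p = 0.0282), and Mdm2 as higher at 4C (0.32, adjusted p = 0.0495). No gene of the p53 family and its inhibitors was called by edgeR or DESeq2 (0 of 5, 5 and 4 tested, with 2, 3 and 2 at an unadjusted p under 0.05).

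**Figure D4:**
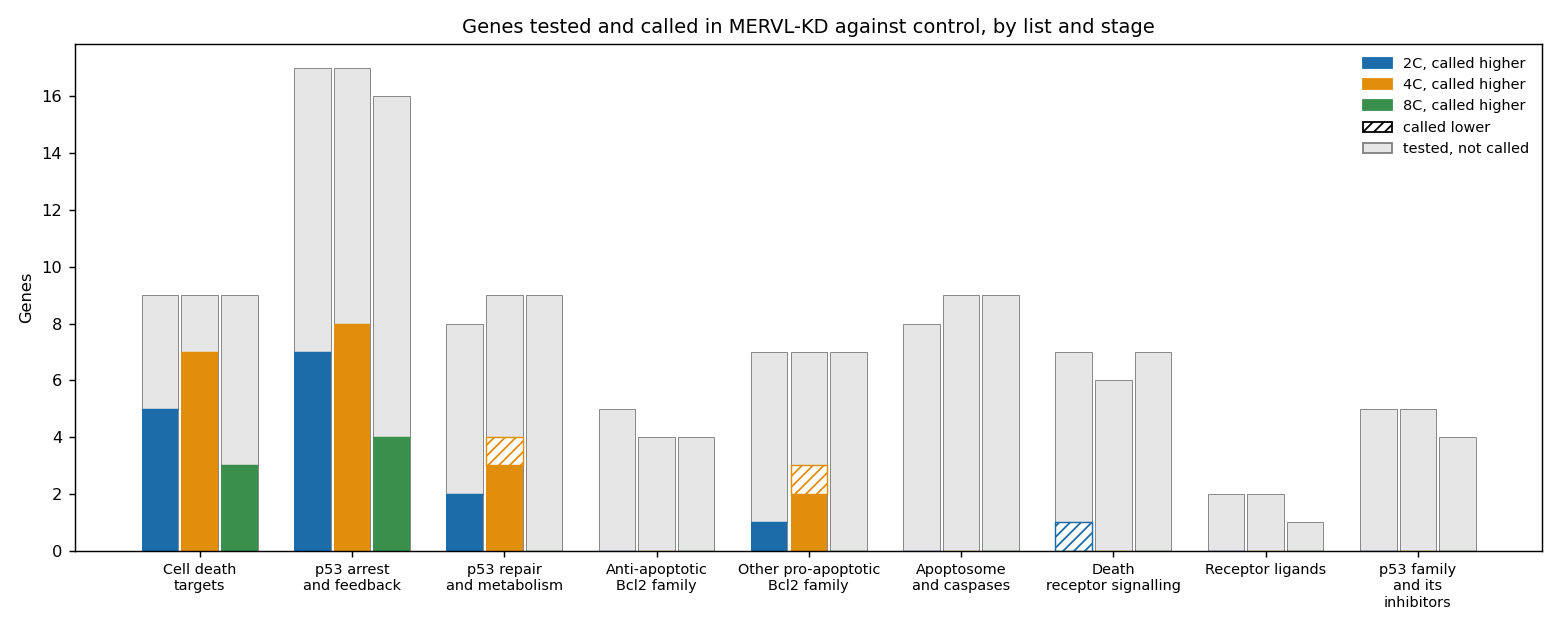
Genes tested (full bar height) and called higher (solid) or lower (hatched) in MERVL-KD against control at 2C, 4C and 8C, for the cell death targets and 8 related lists. Calls fall in the p53 target lists and the pro-apoptotic BCL2 family, with 1 further call (Casp8, lower at 2C) in the death receptor list.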

How the data were processed

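Total RNA was sequenced from 12 pools of embryos. Per the labels and methods, the authors mapped read pairs to GRCm38 with STAR 2.5.3a and ran featureCounts on uniquely mapped reads, over GENCODE genes and RepeatMasker families. The deposited values are raw counts. Reads carry no molecular identifier, so amplified copies of one molecule are counted apart. The bounds allow for counting error alone, and replicate counts varied by more than that (chi-square per degree of freedom 12.9 to 22.6). Of the counts from 1 to 50, 71.7% to 74.5% were even, as when both mates of a pair are counted; counts halved and rounded up were therefore an alternative. Whether counting used strand is not given in the sources used here.

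Each stage had its own edgeR 4.0.16 fit (R 4.3.3, filterByExpr, TMM, robust quasi-likelihood test), and interactions and stage steps in one fit of 12 libraries. Benjamini-Hochberg adjustment covered every gene and repeat family tested, and SEs were derived from the F statistic. CPM use effective library sizes from 12-library TMM factors (0.873 to 1.18), and RPKM divide them by exon length. Exon lengths and gene coordinates are those that come with the deposited counts. The annotation at the promoter runs was read from GENCODE vM21, an earlier release than the study counted on. A group with 0 counts was set to 3 counts per library to give a bound. Alternatives were DESeq2 1.42.0, other scalings and filters, a replicate block, halved counts, a non-robust fit, no fold threshold, omission of repeats and of genes above 1% of counts, and omission of single libraries. The scripts were tested on simulated data.

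All 10 members and the genes called in the lists are named, up to 6 per list by smallest adjusted p. Cdkn1a, Gtse1, Ptprv, Ppm1d, Mcl1, Eda, Tnfsf10 and genes that passed under 2-fold were added after their values were seen. Genes most alike were the 3 at the smallest Euclidean distance in the stage log2 fold changes. Members and lists were chosen with earlier results of these data known. ATAC-seq libraries were not analysed here.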

Additional observations from a re-analysis of the deposited data

Results flagged for a closer look

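For 4 genes the response to MERVL-KD differed between stages by the interaction test (edgeR adjusted p under 0.05). The differences of log2 fold changes were 3.94 for Perp between 4C and 2C and -2.56 between 8C and 4C. For Trp53inp1 they were 0.90 between 4C and 2C and 0.66 between 8C and 2C. For Tnfrsf10b the difference was -1.85 between 8C and 2C. For Phlda3 the difference between 8C and 2C had an adjusted p of 0.00644, and no size is given because both control 2C libraries held 0 counts. Under the alternatives, Perp ranged from 3.64 to 4.14 and from -2.77 to -2.36 and passed each time, and Tnfrsf10b ranged from -2.34 to -1.49 and passed each time. Trp53inp1 between 8C and 2C failed with library size as the only scaling (0.43, adjusted p = 0.0944) and without the first control 8C library (0.47, adjusted p = 0.135).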

How the results depend on the processing

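Of the calls between MERVL-KD and control, the number at each stage stayed within 4 to 6 at 2C, 6 to 8 at 4C and 3 to 4 at 8C under every alternative run. The filter of at least 10 counts in every library left Phlda3 untested at 2C, and 6 and 8 genes passed at 2C and 4C without the fold threshold. With library size as the only scaling, the median of all genes shifted to 0.30 at 2C and 0.13 at 8C. The filter of at least 10 counts in every library gave 3 interaction calls from 2C to 4C in place of 2, with Tnfrsf10b added. Interaction calls from 2C to 4C numbered 4 in place of 2 with library size only, with the filter of at least 1 count and with DESeq2, and 2 to 4 with a library left out (4 without either control 8C library), the added genes being Tnfrsf10b and Phlda3. From 4C to 8C, interaction calls numbered 3 in place of 1 with the filter of at least 1 count, 2 with DESeq2, 2 with halved counts and 1 to 2 with a library left out (2 without either control 2C library or the first control 8C library). In MERVL-KD embryos from 4C to 8C, calls numbered 2 in place of 0 with library size only (Bbc3 and Phlda3), 1 with the filter of at least 1 count, with DESeq2 and with halved counts (Phlda3 each time), and 0 to 1 with a library left out. That 1 call was Phlda3 without either MERVL-KD 2C or either control 8C library, Pmaip1 without the first MERVL-KD 4C library and Bbc3 without the first MERVL-KD 8C library. At 8C, Bax ranged from -0.042 to 0.35 and Tnfrsf10b from -0.035 to 0.18 on the log2 scale with a library left out, neither of them called. The cause of these shifts was not tested. With a library left out, the lone sample of its group is assumed to vary like the others.

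Same-numbered libraries did not deviate together (r = -0.057, 0.0085 and 0.027 at 2C, 4C and 8C), so they share only a number. With the replicate block, 5, 7 and 4 genes were called at 2C, 4C and 8C, the added one being Eda2r at 8C (adjusted p = 1.07e-08), and Perp at 8C passed under 2-fold (0.0259). Low counts limit Fas, Phlda3 and Perp at 2C, and 2 pools per group limit every estimate of spread.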

Other observations

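Genes with the most similar log2 fold changes over the 3 stages were sought among annotated genes that passed the test at a stage. These numbered 3576 for Bax and 3575 for each other gene, in a description over 3 contrasts of the same 12 libraries. Nearest to Bbc3 (2.04, 1.85 and 1.07) were Lemd2 (1.91, 2.07 and 1.11), Zmat3 (1.75, 1.99 and 1.11) and Pwwp3b (1.73, 2.02 and 1.11). Pmaip1 was nearest to Ttc9 (1.99, 2.54 and 2.10), then Pfkfb4 and Id2. The course of Perp (-0.63, 3.24 and 0.68) was nearest to that of Zscan4b (-0.53, 3.22 and 0.42), a gene of the 2-cell-stage Zscan4 family, then Pros1 (-0.67, 2.62 and 0.37) and Bik (-0.90, 2.65 and 0.24), a pro-apoptotic BCL2 family gene. Bik passed the test at 2C only, and its 4C value did not pass (SE 1.02, edgeR adjusted p = 0.128), from 6 counts in control and 42 in MERVL-KD. Tnfrsf10b was nearest to Col11a2 (1.99, 1.09 and 0.11), Pitx1 and Gdf5, and Eda2r to Tshr, Btg2 and Plod2 at larger distances (0.618 to 1.17, against 0.0843 for Col11a2). Trp53inp1 lay near Fat1, Procr and Abhd5. Aen lay near Dnajc3 (0.27, 0.56 and 0.30), Ubtd1 and Hspa5, of which Dnajc3 and Hspa5 encode chaperones of the endoplasmic reticulum. Bax lay near Glg1, Sf3a1 and Rnf7. Phlda3 is left out because its 2C value rests on control libraries with 0 counts.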
